A study of Mus musculus with 56 samples.

Results

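A set of 41 genes of mitosis was followed across CD4 T cells that were left unactivated or were driven to divide in culture. The genes were taken by symbol from the gene column of both deposited count tables, 41 of 19791 symbols in experiment 1 and 41 of 24421 in experiment 2. Each had at least 10 counts in each table, and 39 of the 41 in experiment 1 and 40 in experiment 2 passed the filter on low counts. Cdc20 and Kif22 were left untested in experiment 1, with 46 and 22 counts over its libraries, and Cdk1 in experiment 2, with 22 counts.

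All cells were CD4 T cells from the spleen of C57BL/6 mice, measured by 3′-end RNA sequencing with molecular identifiers, and activation was by beads coated with antibodies to CD3 and CD28 with no cytokine added. Experiment 2 has 38 libraries: cultures of high (1000000 per ml) or low (62500 per ml) starting concentration from which CD4 cells were sorted at 18, 30, 48 and 72 h, cultures of 250000 per ml from which CD44 positive cells with or without CD62L were sorted at 48 and 72 h, and naive cells (CD44 negative, CD62L positive) that were not activated. Experiment 1 has 18 libraries: cultures of 250000 per ml divided by CD62L at 48 and 72 h, mature cells (CD44 positive, CD62L negative) and naive cells (CD44 negative, CD62L positive), the last 2 groups unactivated and enriched on magnetic columns. Each group holds 3 libraries, except the low concentration at 72 h with 2, and the study asks how cell concentration relates to early memory differentiation. Cultures were started from naive cells, plates and volumes differed between the experiments, and no source used here gives the density at harvest. No source says whether the replicates are separate mice or cultures, so each p-value reflects the spread of the libraries alone. A bulk library cannot tell fewer cells in mitosis from less mitotic RNA per cell.

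Library totals ran from 58750 (naive, replicate 1 of experiment 1) to 1738555 counts in experiment 1, where the next lowest was 249838, and from 587118 to 3359875 in experiment 2. CPM is the count per 1000000 of the library's total over the genes that passed the filter, scaled by trimmed mean of M values, with each table scaled on its own. The 8 CD4 T cell markers summed to 4020 CPM or more in every unactivated library, with Cd2 at 0 in mature cells, and to 2006 CPM or more in every activated one. The titles of experiment 2 carry a second number, 1 or 2, of unstated meaning, which is named below where it runs with a comparison.

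Mitosis is the part of the cell cycle in which replicated chromosomes are condensed, attached to the spindle and pulled apart. Cyclins A and B with the kinase Cdk1 start it, the kinases Plk1, Aurka and Aurkb drive it, the spindle checkpoint holds it until every kinetochore is attached, and the anaphase-promoting complex ends it by having cyclin B and securin destroyed. Most of these genes are transcribed from late S phase onward through promoters that carry CCAAT boxes, bound by NF-Y, and a cell cycle homology region, bound by the MuvB complex with B-Myb and FoxM1. Resting T cells lie outside the cycle, and after stimulation through the T cell receptor and CD28 they take about a day to enter their first division.

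The promoters of the mitosis genes are shown first. RefSeq promoters (build GRCm38.p6, 250 bases before to 50 after the start) were on hand for 34 of the 41 genes. A gene was counted if any of its promoters held the motif, and 2 genes had 2 promoters, whereas the share of all counts single promoters. TTTGAA, the core of the cell cycle homology region, was read on both strands within this window in 25 of the 34 (73.5%), against 17.9% of all 32851 promoters. CCAAT was found on either strand in 27 (79.4%), against 37.4% of all promoters, and at least 2 copies in 19 (55.9%), against 11.7%. Both motifs stood in 23 (67.6%), against 6.95% of all promoters (a base shared by 2 matches counts for both). Birc5, Mad2l1, Nuf2, Nusap1 and Pttg1 held neither. Across the groups of experiment 2, Pearson's r with the mean of the genes was 0.99 for Birc5, Nuf2 and Nusap1 and 0.96 for Mad2l1. For Pttg1 it was -0.02, so the genes with neither motif did not share 1 course. The 150 bases before the start follow, 5′ to 3′ on the gene's strand, with TTTGAA (or TTCAAA, its reverse) and CCAAT (or ATTGG) in capitals, for 4 genes with both motifs upstream, 1 with CCAAT alone and 1 with neither. A match is a string of letters and not a measured binding site.
Ube2c: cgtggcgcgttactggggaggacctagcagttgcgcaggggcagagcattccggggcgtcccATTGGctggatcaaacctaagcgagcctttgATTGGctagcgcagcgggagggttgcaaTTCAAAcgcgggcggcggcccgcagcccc
Cdc20: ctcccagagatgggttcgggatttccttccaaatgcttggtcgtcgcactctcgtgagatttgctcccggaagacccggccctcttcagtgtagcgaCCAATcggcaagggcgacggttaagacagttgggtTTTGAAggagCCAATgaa
Cdk1: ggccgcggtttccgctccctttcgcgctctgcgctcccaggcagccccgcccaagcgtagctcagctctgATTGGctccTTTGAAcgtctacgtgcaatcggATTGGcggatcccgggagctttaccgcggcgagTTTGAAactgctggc
Top2a: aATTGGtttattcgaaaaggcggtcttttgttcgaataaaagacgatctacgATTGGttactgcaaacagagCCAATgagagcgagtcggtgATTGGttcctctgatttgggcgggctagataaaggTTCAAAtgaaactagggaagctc
Ccnb1: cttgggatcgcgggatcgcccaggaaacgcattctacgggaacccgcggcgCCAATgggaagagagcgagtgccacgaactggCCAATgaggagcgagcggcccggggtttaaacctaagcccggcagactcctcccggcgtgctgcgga
Pttg1: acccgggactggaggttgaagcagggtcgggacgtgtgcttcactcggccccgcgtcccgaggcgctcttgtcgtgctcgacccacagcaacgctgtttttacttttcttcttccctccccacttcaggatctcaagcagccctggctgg
They lie at chr2:164769779-164769928 (plus strand), chr4:118437344-118437493 (minus strand), chr10:69352913-69353062 (minus strand), chr11:99024190-99024339 (minus strand), chr13:100786487-100786636 (minus strand) and chr11:43425982-43426131 (minus strand) of GRCm38.p6. The submitters' notes name build mm9 for the counts, which are matched here by symbol only.

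The rule for a change is an adjusted p under 0.05 in edgeR's quasi-likelihood test with Benjamini-Hochberg adjustment over all genes tested, and differences are on the log2 scale ± SE. Shares of all genes tested are given for this rule alone. They are no measure for the counts at an unadjusted p under 0.05 or in DESeq2, which stand without a share of all genes. Summed over the 41 genes, experiment 2 libraries held 291 to 300.1 CPM in naive cells. At the high concentration the sum was 764 to 898 CPM at 18 h, 4596 to 4939 at 30 h, 6093 to 6577 at 48 h and 4981 to 5461 at 72 h. At the low concentration it was 359 to 398 CPM at 18 h, 3319.5 to 3918 at 30 h, 5284 to 5636 at 48 h and 8010 to 8196 at 72 h. In this sum the high cultures stood above the low ones at 18, 30 and 48 h and below them at 72 h. The libraries did not overlap at any of the 4 times. Abundant genes weigh most in the sum, and at 48 h the median gene difference was 0.13, with 3 of 40 genes past the test. The second title number runs with concentration at 72 h and in part at 48 h. Measured against each gene's own highest time, the median gene of 40 stood at 11.6, 77.4, 100 and 80.2% at 18, 30, 48 and 72 h in high cultures and at 5.12, 50.5, 69.5 and 100% in low cultures. In high cultures 23 genes had their highest mean at 48 h, 10 at 30 h and 7 at 72 h, whereas in low cultures 36 had it at 72 h and 4 at 48 h.

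**Figure D1:**
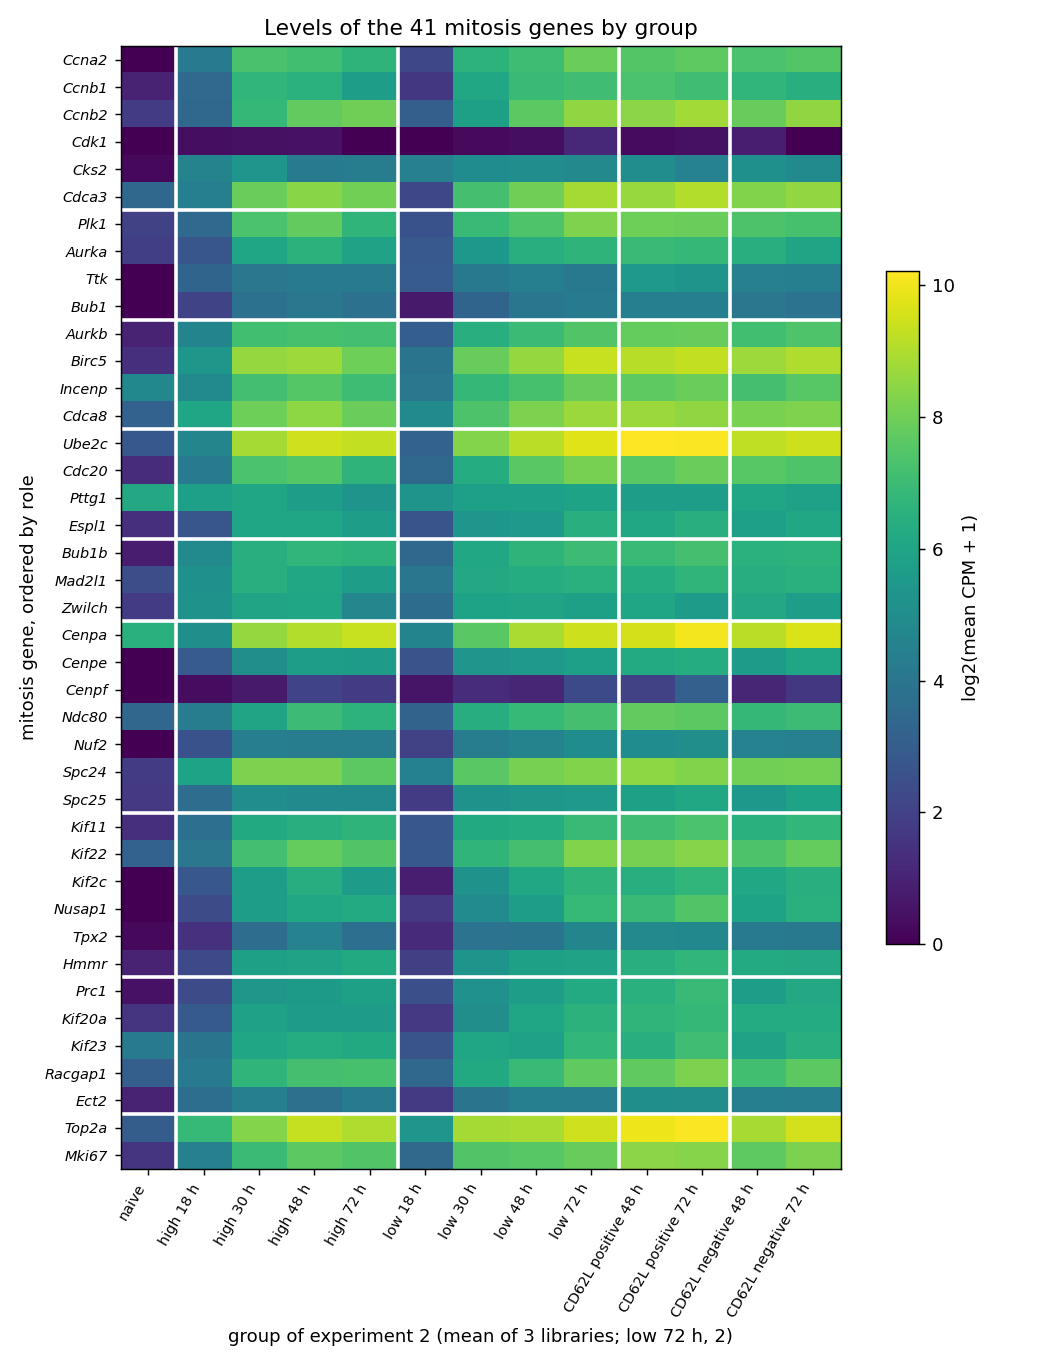
Mean level of each of the 41 mitosis genes (rows, ordered by role) in the 13 groups of experiment 2 (columns), as log2(mean CPM + 1) over 3 libraries, 2 for the low concentration at 72 h. Most rows are dark in naive cells and bright from 30 h on; Pttg1 is about even across the columns, and Cdk1 and Cenpf stay dark throughout.

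The first 18 h, over both concentrations, were compared with naive cells. Of the 40 genes tested, 31 were higher and 3 lower at 18 h, where 32.3% of all genes tested were higher and 33.6% lower. The median difference of the 40 was 2.38, or 2.25 with the 7 changed genes that had 0 counts in naive cells set at their lower bounds, against 0 for all genes tested. Fitted without the other groups, where the filter left 27 of these genes, 17 were higher. The kinases Plk1, Aurka, Ttk and Bub1 and the checkpoint genes Bub1b, Mad2l1 and Zwilch were among the 31, as were 3 of the 4 passenger complex genes and 5 of the 6 spindle genes. For Plk1, Aurka and Bub1 the libraries at 18 h overlapped those of naive cells. Plk1 had 10.2, 8.21 and 11.9 CPM in high cultures. Its low cultures had 2.92, 4.85 and 7.13 CPM, against 3.86, 4.35 and 0.531 CPM in naive cells.

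Top2a, the topoisomerase that untangles sister chromatids, had 123, 101 and 119 CPM at 18 h in high cultures and 37.2, 44.9 and 39.2 CPM in low cultures, against 8.49, 4.98 and 7.44 CPM in naive cells. It rose by 3.28 ± 0.24 (adjusted p = 2.8e-17, n = 6 against 3). Birc5, the survivin subunit of the chromosomal passenger complex, had 42.9, 38.0 and 44.0 CPM in high cultures and 13.1, 9.70 and 19.6 CPM in low cultures, against 0.772, 2.49 and 1.59 CPM in naive cells. The lowest 18 h library of either gene exceeded the highest naive one, and Birc5 rose by 3.77 ± 0.31 (adjusted p = 3.88e-15). Bub1b, the checkpoint kinase BubR1, had 22.4, 29.8 and 33.0 CPM in high cultures and 10.2, 7.28 and 12.5 CPM in low cultures, against 0, 1.24 and 1.06 CPM in naive cells, and rose by 4.20 ± 0.43 (adjusted p = 2.09e-12). These 3 genes separated every 18 h library from every naive library.

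For genes with 0 counts in all naive libraries only a bound can be given, with 3 counts in the group as the floor. Ccna2, cyclin A2, was at least 18.3-fold higher at 18 h, Ttk, the checkpoint kinase Mps1, at least 11.5-fold, and Cenpe, a kinetochore motor, at least 8.92-fold. Nuf2 was at least 6.12-fold, Kif2c at least 5.61-fold, Nusap1 at least 4.84-fold and Bub1 at least 3.31-fold higher. These bounds pool both concentrations, and Kif2c had 20 counts in high and 2 in low cultures at 18 h, with 0 in 2 of the low libraries, and Bub1 11 in high and 2 in low cultures. Cks2, a small subunit of cyclin-dependent kinases, had 140 counts at 18 h and 1 count in naive cells, a ratio of 107 with an exact 95% interval of 18.9 to 4260 that covers counting error only.

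Of the genes, 3 ran the other way at 18 h. Cenpa, the histone H3 variant that marks centromeres, had 37.3, 24.6 and 36.6 CPM in high cultures and 22.6, 25.5 and 21.4 CPM in low cultures, against 105, 75.9 and 86.6 CPM in naive cells, and fell by 1.69 ± 0.16 (adjusted p = 5.47e-13). Pttg1, securin, which keeps separase inactive until anaphase, had 56.8, 51.5 and 51.3 CPM in high cultures and 46.7, 32.7 and 33.9 CPM in low cultures, against 70.2, 82.1 and 60.04 CPM in naive cells. Every 18 h library of these 2 genes lay below every naive library, and Pttg1 fell by 0.64 ± 0.19 (adjusted p = 0.00297). Kif23, a motor of the central spindle, fell by 0.95 ± 0.26 (adjusted p = 0.00156), although its libraries overlapped. In naive cells it had 14.7, 14.3 and 25.5 CPM. The low cultures lay below these, at 10.2, 3.64 and 1.78 CPM, and the high cultures, at 15.8, 11.9 and 15.6 CPM, overlapped them. Cdca3, Incenp, Kif22, Ndc80, Kif20a and Cenpf did not pass the test, with Cenpf at 3 counts over the 6 libraries at 18 h. The test averages both concentrations, which lay on opposite sides of naive cells for Cdca3. Against 10.0, 9.95 and 10.1 CPM in naive cells, it had 16.8, 21.6 and 22.0 CPM in high cultures, all above. In low cultures it had 1.46, 6.06 and 3.57 CPM, all below.

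At 30 h the genes stood far above their 18 h level at both concentrations. Of 40, 37 were higher and 0 lower than at 18 h, where 13.9% of all genes tested were higher and 10.6% lower. The median difference was 2.97, against 0.01 for all genes. The counts were 39 higher and 0 lower at an unadjusted p under 0.05, and 38 and 0 in DESeq2. All 30 h libraries carry second number 2 and all 18 h libraries number 1, so the time and that number cannot be told apart here.

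Ube2c, the ubiquitin-conjugating enzyme of the anaphase-promoting complex, had 427, 424 and 525 CPM at 30 h in high cultures and 327, 283 and 348 CPM in low cultures, against 24.2, 12.7 and 37.5 CPM at 18 h in high cultures and 8.03, 6.06 and 10.7 CPM at 18 h in low cultures. Every 30 h library lay above every 18 h library. With a difference of 4.77 ± 0.18 (adjusted p = 8.4e-26) it had the largest rise of the 40. Next came Cdca3, a trigger of mitotic entry (4.49 ± 0.16), Kif2c, a microtubule depolymerase (4.34 ± 0.32), Plk1 (4.34 ± 0.23), cyclin B1 (Ccnb1, 4.17 ± 0.26) and Nusap1 (3.82 ± 0.34). Among the checkpoint genes, which had also risen at 18 h, Zwilch rose by 1.58 ± 0.17, Mad2l1 by 1.73 ± 0.17 and Bub1b by 2.20 ± 0.16. Cenpa, which had fallen at 18 h, rose to 351, 378 and 429 CPM in high and 207, 180.1 and 201 CPM in low cultures. Pttg1, Cenpf and Ttk did not pass the test at 30 h against 18 h, at 0.38, 1.05 and 1.24.

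Genes of DNA replication were set beside those of mitosis, from a list of 41 that holds the MCM helicase, polymerases and nucleotide synthesis. At 18 h against naive cells 39 of these 41 rose, with a median of 3.09, where 32.3% of all genes tested rose. At 30 h against 18 h 32 rose, with a median of 0.83, where 13.9% of all genes rose. The mitosis genes had medians of 2.38 and 2.97 in these 2 comparisons, which share their 18 h libraries. Gins2, a subunit of the replicative helicase, rose by 4.83 ± 0.21 at 18 h, and Tk1, thymidine kinase, rose by 2.19 ± 0.13 from 18 to 30 h.

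**Figure D2:**
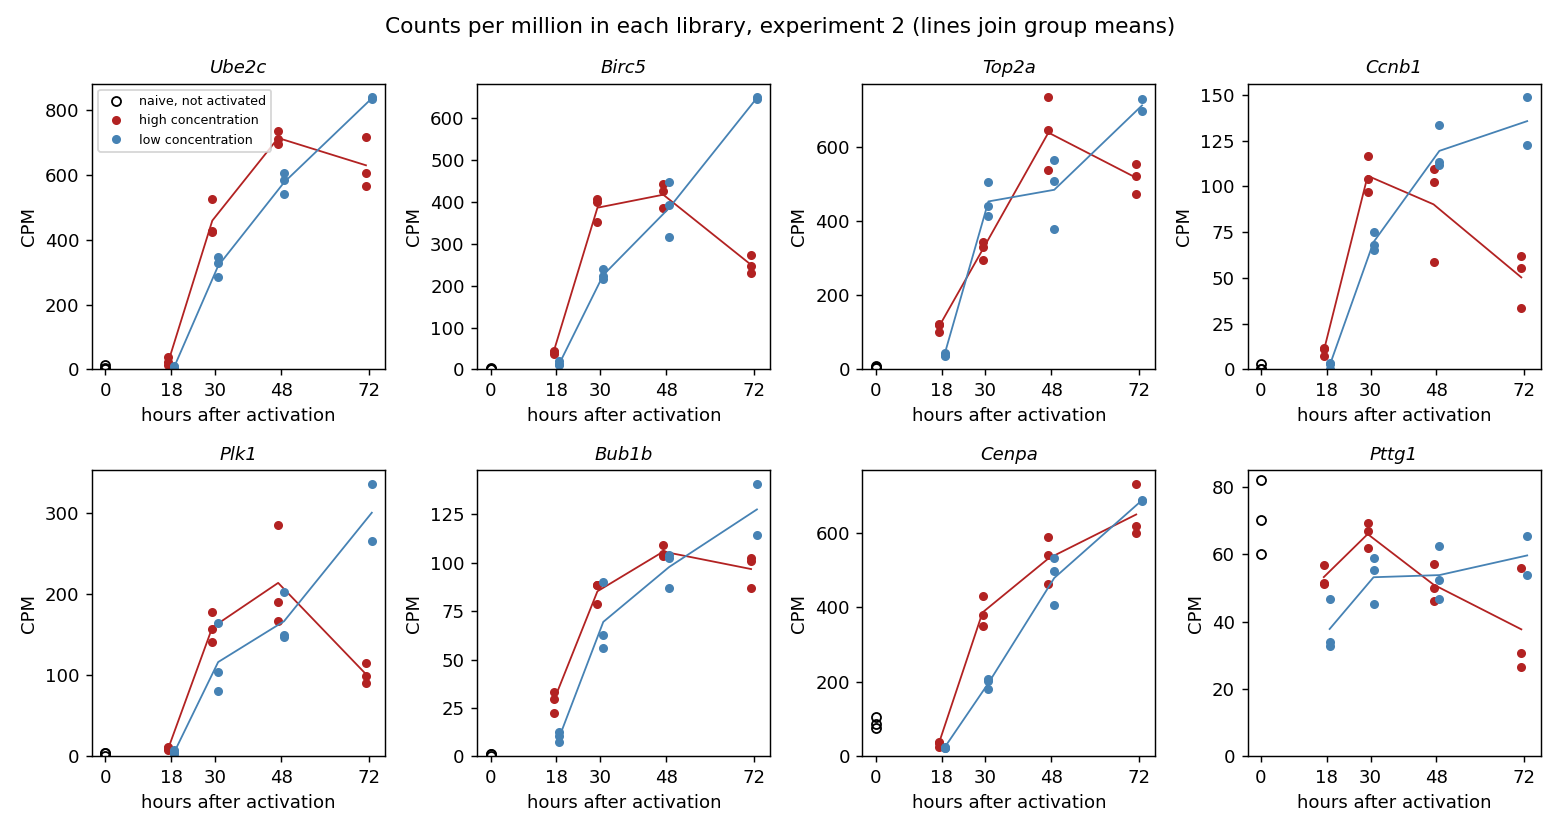
CPM of 8 mitosis genes in every library of experiment 2 against hours after activation; naive cells are open circles at 0, high cultures red, low cultures blue, points are libraries and lines join group means. Birc5, Plk1 and Ccnb1 end lower in high than in low cultures at 72 h, Cenpa ends level, and Pttg1 starts at its highest.

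High and low cultures, which differ 16-fold in starting concentration, were compared at each time. At 18 h 13 of 40 genes were higher and 0 lower in high cultures, where 1.15% of all genes tested were higher and 0.725% lower, with a median difference of 1.16 against 0.01 for all genes. An unadjusted p under 0.05 was reached by 26 higher and 0 lower, and DESeq2 gave 14 and 0. Cdca3 (2.59 ± 0.35, adjusted p = 1.86e-06), the kinetochore gene Spc25 (2.37 ± 0.50), the cytokinesis factor Ect2 (2.36 ± 0.65), Ccna2 (1.98 ± 0.47), Aurkb (1.69 ± 0.35) and Zwilch (1.63 ± 0.29) rose most. Cdca3, Spc25, Ect2 and Ccna2 had few counts in low cultures, with means of 3.70, 2.48, 2.32 and 3.59 CPM. Bub1b, Mad2l1 and Zwilch of the checkpoint passed, as did 3 of 4 passenger complex genes, the kinase Aurkb among them, whereas the kinases Plk1, Aurka, Ttk and Bub1 did not. Aurkb, the kinase of the passenger complex, had 19.6, 24.6 and 26.6 CPM in high and 6.57, 8.49 and 7.13 CPM in low cultures. Zwilch, which helps recruit checkpoint proteins to kinetochores, had 29.8, 31.3 and 46.7 CPM in high and 13.1, 8.49 and 12.5 CPM in low cultures, so that neither gene's groups overlapped. Kif2c had 20 counts in high and 2 in low cultures, a ratio of 7.86 (exact 95% interval 1.91 to 69.3, counting error only), and was not past the test. Of the replication genes 25 of 41 were higher and 0 lower at 18 h, with a median of 0.85.

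At 30 h 10 of 40 genes were higher and 1 lower in high cultures, where 4.63% of all genes tested were higher and 3.93% lower, with a median difference of 0.49 against -0.03 for all genes. Cdc20, the activator of the anaphase-promoting complex, had 146, 169 and 167 CPM in high and 92.5, 67.4 and 75.3 CPM in low cultures, a difference of 1.04 ± 0.20 (adjusted p = 0.000242). Ccnb2, cyclin B2, had 92.2, 108 and 129.7 CPM in high and 64.9, 54.7 and 46.1 CPM in low cultures, a difference of 1.01 ± 0.20 (adjusted p = 0.000506). Cenpa differed by 0.98 ± 0.15, Birc5 by 0.77 ± 0.14, Aurkb by 0.71 ± 0.18 and Cdca3 by 0.70 ± 0.14, and the libraries of the 2 concentrations did not overlap for any of these 6 genes. Top2a went the other way, with 295, 343 and 332 CPM in high and 506, 441 and 413 CPM in low cultures (-0.49 ± 0.16, adjusted p = 0.0415), a call that ended with relative log expression factors, in DESeq2, with no filter and without any single library of the 6. DESeq2 and the fit with no filter each gave 16 genes higher, and without high replicate 3 the count was 6.

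At 48 h 3 of 40 genes were higher and 0 lower in high cultures, where 13.9% of all genes tested were higher and 12% lower, with a median of 0.13 against 0.04. Those 3 were Kif22 (0.61 ± 0.20), a chromosome arm motor, Kif23 (0.50 ± 0.19) and Cdca3 (0.40 ± 0.14). Without adjustment, at p under 0.05, 5 were higher and 2 lower, and DESeq2 gave 3 and 0. Without low replicate 2 the count higher was 0, without low replicate 3 or high replicate 3 it was 1, and with no high-culture replicate 3 there was also 1 lower. High libraries all carry second number 2 at 48 h, and against the only low library of that number, assumed to vary like the others, 1 gene was higher and the median was 0.24.

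At 72 h the difference lay the other way: 21 of 40 genes were lower and 0 higher in high cultures, where 13.5% of all genes tested were lower and 13% higher, with a median of -0.64 against 0.01. At an unadjusted p under 0.05, 28 were lower and 0 higher, and DESeq2 gave 22 and 0. Plk1, the kinase of mitotic entry and spindle assembly, had 115, 90.4 and 98.9 CPM in high and 336 and 265 CPM in low cultures and was lower by 1.57 ± 0.23 (adjusted p = 8.39e-07). Cdc20 had 103, 108 and 87.9 CPM in high and 303 and 251 CPM in low cultures and was lower by 1.47 ± 0.21 (adjusted p = 5.26e-07). For both genes every high library lay below every low library. Ccnb1 had 61.8, 33.6 and 55.5 CPM in high and 123 and 149 CPM in low cultures and was lower by 1.43 ± 0.25 (adjusted p = 2.61e-05). Birc5 had 229, 275 and 246 CPM in high and 647 and 650.0 CPM in low cultures and was lower by 1.38 ± 0.15 (adjusted p = 7.54e-10). These groups too did not overlap, and Ccna2 (-1.27 ± 0.23) and Zwilch (-1.08 ± 0.25) followed.

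Not every mitosis gene followed at 72 h. Cenpa had 598, 731 and 617 CPM in high and 686 and 688 CPM in low cultures, overlapping groups that differed by -0.08. Aurkb had 136, 153 and 143 CPM in high and 166 and 179 CPM in low cultures (-0.26), Cenpe differed by -0.11 and Hmmr, a spindle-binding protein, by 0.35, none past the test. Without low replicate 1 or low replicate 2 the count lower was 13. All high libraries carry second number 1 at 72 h and both low libraries number 2, so concentration and that number cannot be told apart within this time; with the number as a covariate over all groups 18 were lower. Of the replication genes 36 of 41 were lower and 0 higher, with a median of -1.15, where 13.5% of all genes were lower and 13% higher.

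Markers of other cells were read in the same cultures, and their part in the high against low differences was not tested. The 6 CD8 T and NK cell markers summed to 68.0 to 96.2 CPM in high and 48.5 to 62.8 CPM in low cultures at 18 h, and to 38.9 to 63.5 CPM in high and 30.0 to 35.4 CPM in low cultures at 30 h. At 48 h they summed to 21.9 to 32.3 CPM in high and 13.8 to 22.4 CPM in low cultures, and at 72 h to 31.8 to 38.8 CPM in high and 14.7 to 15.6 CPM in low cultures. The sums overlapped at 48 h alone. They came almost wholly from 1 gene, Cd8b1, the beta chain of CD8. It averaged 85.8 CPM in high and 53.9 CPM in low cultures at 18 h, and 49.2 and 32.5 CPM at 30 h, neither difference past the test. Cd8a was at 0 in both at 18 h and at 0.614 and 0.148 CPM at 30 h. At 18 h and at 72 h 4 of the 6, Cd8a, Klrb1c, Ncr1 and Klrk1, were at 0 in both. Cd8b1 averaged 35.8 CPM in high and 14.9 CPM in low cultures at 72 h (1.26 ± 0.29, adjusted p = 0.000723). B cell markers at 72 h summed to 6.47 to 10.3 CPM in high and 8.76 to 10.03 CPM in low cultures, and myeloid markers to 182 to 289 CPM in high and 208 to 243 CPM in low cultures. The myeloid gene Csf1r passed the test at 72 h, with a mean of 5.67 CPM in high and 0 CPM in low cultures.

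**Figure D3:**
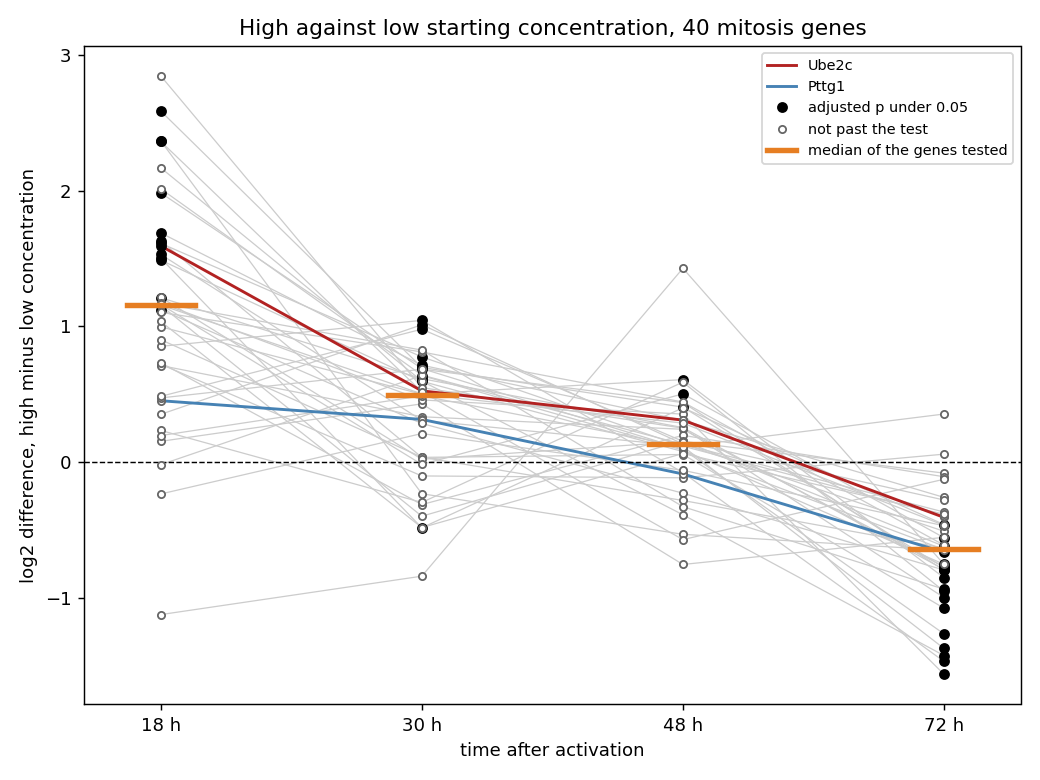
Log2 difference of high minus low concentration for each of 40 mitosis genes at 4 times, grey lines joining a gene; filled points passed the test, open points did not, and orange bars are medians. The medians are 1.16, 0.49, 0.13 and -0.64 at 18, 30, 48 and 72 h.

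The change of the high minus low difference was itself tested. From 18 to 72 h it was negative past the test for 24 of 40 genes and positive for 0, where 9.22% of all genes tested were negative and 7.1% positive, with a median of -1.85. At an unadjusted p under 0.05 the counts were 28 and 0, and in DESeq2 26 and 0. The most negative estimates were those of Kif2c (-3.85 ± 0.85, resting on 2 counts in low cultures at 18 h), Ccnb1 (-3.60 ± 0.65), Cdca3 (-3.37 ± 0.38), Ccna2 (-3.25 ± 0.51), Spc25 (-3.02 ± 0.56) and Birc5 (-2.99 ± 0.28). Ccnb1, Cdca3, Ccna2 and Spc25 too had few counts in low cultures at 18 h, with means of 2.16, 3.70, 3.59 and 2.48 CPM. From 48 to 72 h it was negative for 18 and positive for 0, where 7.89% of all genes were negative and 4.68% positive, and 23 and 0 at an unadjusted p under 0.05 and 20 and 0 in DESeq2. Plk1 led with -1.92 ± 0.31, followed by Tpx2, a spindle assembly factor (-1.54 ± 0.44), and Birc5 (-1.49 ± 0.21). The 48 to 72 h count was 9 with the second number as a covariate and 9 without low 72 h replicate 1. From 30 to 48 h, Cdc20 (-1.12 ± 0.27), Ccnb1, Ccnb2, Cenpa and Birc5 were negative and Top2a positive (0.88 ± 0.22), 5 and 1 of 40, where 6.71% of all genes were negative and 6.22% positive.

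The same late times were read within each concentration. In low cultures 17 of 40 genes rose and 0 fell at 72 h against 48 h, where 14.2% of all genes tested rose and 11.6% fell, with a median of 0.53 against 0.01; 23 rose and 0 fell at an unadjusted p under 0.05, and DESeq2 gave 17 and 0. Birc5 had 647 and 650.0 CPM at 72 h, against 448, 316 and 392 CPM at 48 h, and rose by 0.75 ± 0.15 (adjusted p = 0.000125). Nusap1, a spindle microtubule binder, rose by 1.12 ± 0.27, Kif22 by 1.10 ± 0.22, Espl1, separase, by 0.93 ± 0.27, Kif23 by 0.91 ± 0.21, Ccna2 by 0.88 ± 0.22 and Ccnb2 by 0.87 ± 0.20. Without low 72 h replicate 1 the count was 8 and without replicate 2 it was 10, and within second number 2, with 1 library at 48 h assumed to vary like the others, it was 5 with a median of 0.57.

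In high cultures 9 of 40 genes fell and 0 rose at 72 h against 48 h, where 12% of all genes tested fell and 11.5% rose, with a median of -0.31 against 0.01; 14 fell and 0 rose at an unadjusted p under 0.05, and DESeq2 gave 11 and 0. Zwilch had 28.9, 18.9 and 29.6 CPM at 72 h, against 68.0, 58.3 and 67.8 CPM at 48 h, and fell by 1.32 ± 0.22 (adjusted p = 1.09e-05). Plk1 had 115, 90.4 and 98.9 CPM at 72 h, against 285, 190.2 and 167 CPM at 48 h, and fell by 1.07 ± 0.21 (adjusted p = 0.00017). The groups of both genes were apart. Cdc20 fell by 0.86 ± 0.20, Ccnb1 by 0.86 ± 0.24, with overlapping libraries, Birc5 by 0.74 ± 0.14 and Kif2c by 0.72 ± 0.23, whereas Cenpa (0.29) and Ccnb2 (0.23) did not pass the test. At 48 h all high libraries carry number 2 and at 72 h number 1, so the 2 cannot be told apart; with the number as a covariate 6 fell.

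The interval from 30 to 48 h was read in the same way. In high cultures 14 of 40 genes rose and 1 fell at 48 h against 30 h, where 16.7% of all genes tested rose and 13.3% fell, with a median of 0.29 against 0.06. Ndc80, the kinetochore's microtubule coupler, rose by 1.08 ± 0.20, Ccnb2 by 0.99 ± 0.19 and Top2a by 0.98 ± 0.16, and Cks2 fell by 1.13 ± 0.31. The count higher was 8 with these 2 groups fitted alone and 9 without high 30 h replicate 1; without high 48 h replicate 3, 2 fell. In low cultures 14 rose and 0 fell, where 5.73% of all genes rose and 3.55% fell, with a median of 0.50 against -0.01; 23 rose and 0 fell at an unadjusted p under 0.05, and DESeq2 gave 16 and 0. Ccnb2 rose by 1.87 ± 0.20, Cdc20 by 1.29 ± 0.20, Cenpa by 1.29 ± 0.15 and Aurka, the spindle pole kinase, by 1.03 ± 0.18; within second number 2, with 1 library at 48 h, 7 rose.

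CD62L, the lymph node homing receptor kept by naive and central memory cells, divided the cells started at 250000 per ml. In experiment 2 at 48 h 17 of 40 genes were higher and 0 lower in CD62L positive than in negative cells, where 7.23% of all genes tested were higher and 7.28% lower, with a median of 0.49 against 0.01. At an unadjusted p under 0.05, 26 were higher and 0 lower, and DESeq2 gave 19 and 0. Top2a had 1085, 975 and 955 CPM in CD62L positive and 615, 404 and 405 CPM in CD62L negative cells, a difference of 1.08 ± 0.16 (adjusted p = 8.58e-07). Ube2c had 1265, 1134 and 1171 CPM in CD62L positive and 651, 626 and 518 CPM in CD62L negative cells, a difference of 0.99 ± 0.18 (adjusted p = 5.65e-05). Neither gene's groups overlapped. Nusap1 (0.98 ± 0.24), Ndc80 (0.98 ± 0.19), Mki67, the coat of mitotic chromosomes known as Ki-67 (0.79 ± 0.25), and Prc1, which bundles midzone microtubules (0.79 ± 0.24), followed. All 4 passenger complex genes and 3 of 5 cytokinesis genes passed, and the checkpoint genes Bub1b, Mad2l1 and Zwilch did not.

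When 1 library was left out, the number of genes called at 48 h was between 9 and 18. It was 9 without CD62L positive replicate 3 or negative replicate 3, 10 without positive replicate 2, and 11 without positive replicate 1 or negative replicate 2. CD62L positive libraries all carry second number 1 and 2 of 3 negative ones number 2. With the number as a covariate 8 genes were higher, and against the 1 negative library of number 1, assumed to vary like the others, 2 were higher with the same median of 0.49. Pttg1 (-0.34), Cks2 (-0.17), Zwilch (-0.13) and Mad2l1 (-0.04) were the genes below 0, none past the test.

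At 72 h in experiment 2, 4 of 40 genes were higher and 0 lower in CD62L positive cells, where 0.682% of all genes tested were higher and 0.844% lower, with a median of 0.54 against 0.01. An unadjusted p under 0.05 was reached by 24 higher and 0 lower, and DESeq2 gave 9 and 0. Ube2c had 1245, 1030.3 and 1181 CPM in CD62L positive and 795, 675 and 620.5 CPM in CD62L negative cells (0.73 ± 0.18, adjusted p = 0.0191). Top2a had 1165, 961 and 1301 CPM in CD62L positive and 709, 596 and 877 CPM in CD62L negative cells (0.65 ± 0.16, adjusted p = 0.0152), so both genes kept apart in all libraries. Nusap1 (0.94 ± 0.24) and Aurka (0.86 ± 0.18) also passed. The count was 0 without positive replicate 3, 1 without positive replicate 1 or negative replicate 2, 2 without negative replicate 3, 9 with these 2 groups fitted alone and 1 within second number 1. The change of the difference from 48 to 72 h passed for 0 of 40 genes in either direction, where 0.595% of all genes were positive and 0.704% negative; no gene had an unadjusted p under 0.05, and DESeq2 also gave 0.

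The sorted cells of experiment 1 form a second set of libraries with its own table. At 48 h 1 of 39 genes was higher and 0 lower in CD62L positive cells, where 4.05% of all genes tested were higher and 2.46% lower, with a median of 0.21 against 0.01. That gene was Mki67, with 221, 145 and 157 CPM in CD62L positive and 107, 83.0 and 99.7 CPM in CD62L negative cells (0.86 ± 0.18, adjusted p = 0.00229), and its groups did not overlap. Top2a had 1202, 1009 and 1142 CPM in CD62L positive and 824, 849 and 869 CPM in CD62L negative cells (0.40), and Ube2c 1269.7, 1279.6 and 1318 CPM in CD62L positive and 1038, 1034 and 1023 CPM in CD62L negative cells (0.32). Both were apart in all libraries without passing the test. Without adjustment, at p under 0.05, 10 were higher and 2 lower; DESeq2 gave 4 and 0, these groups fitted alone gave 5 higher, and 2 were higher without positive replicate 2.

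At 72 h in experiment 1, 1 of 39 genes was higher and 0 lower in CD62L positive cells, where 10.1% of all genes tested were higher and 9.35% lower, with a median of 0.10 against -0.00. Racgap1, a partner of Kif23 in the central spindle, was that gene (0.40 ± 0.13, adjusted p = 0.0261), and the call ended without positive replicate 2, negative replicate 1 or negative replicate 2. There were 4 higher and 2 lower at an unadjusted p under 0.05, and DESeq2 gave 1 and 1; without positive replicate 2 or negative replicate 3, 1 gene was lower. The change of the difference from 48 to 72 h passed for 0 of 39 genes, where 0.591% of all genes were positive and 1.29% negative. There were 4 negative and 0 positive at an unadjusted p under 0.05, DESeq2 gave 0, and 1 was negative without positive 72 h replicate 3. Whether the CD62L difference differs between the experiments was not tested, because their tables were never joined and the sorts were not the same, with CD44 in the gate of experiment 2 alone.

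**Figure D4:**
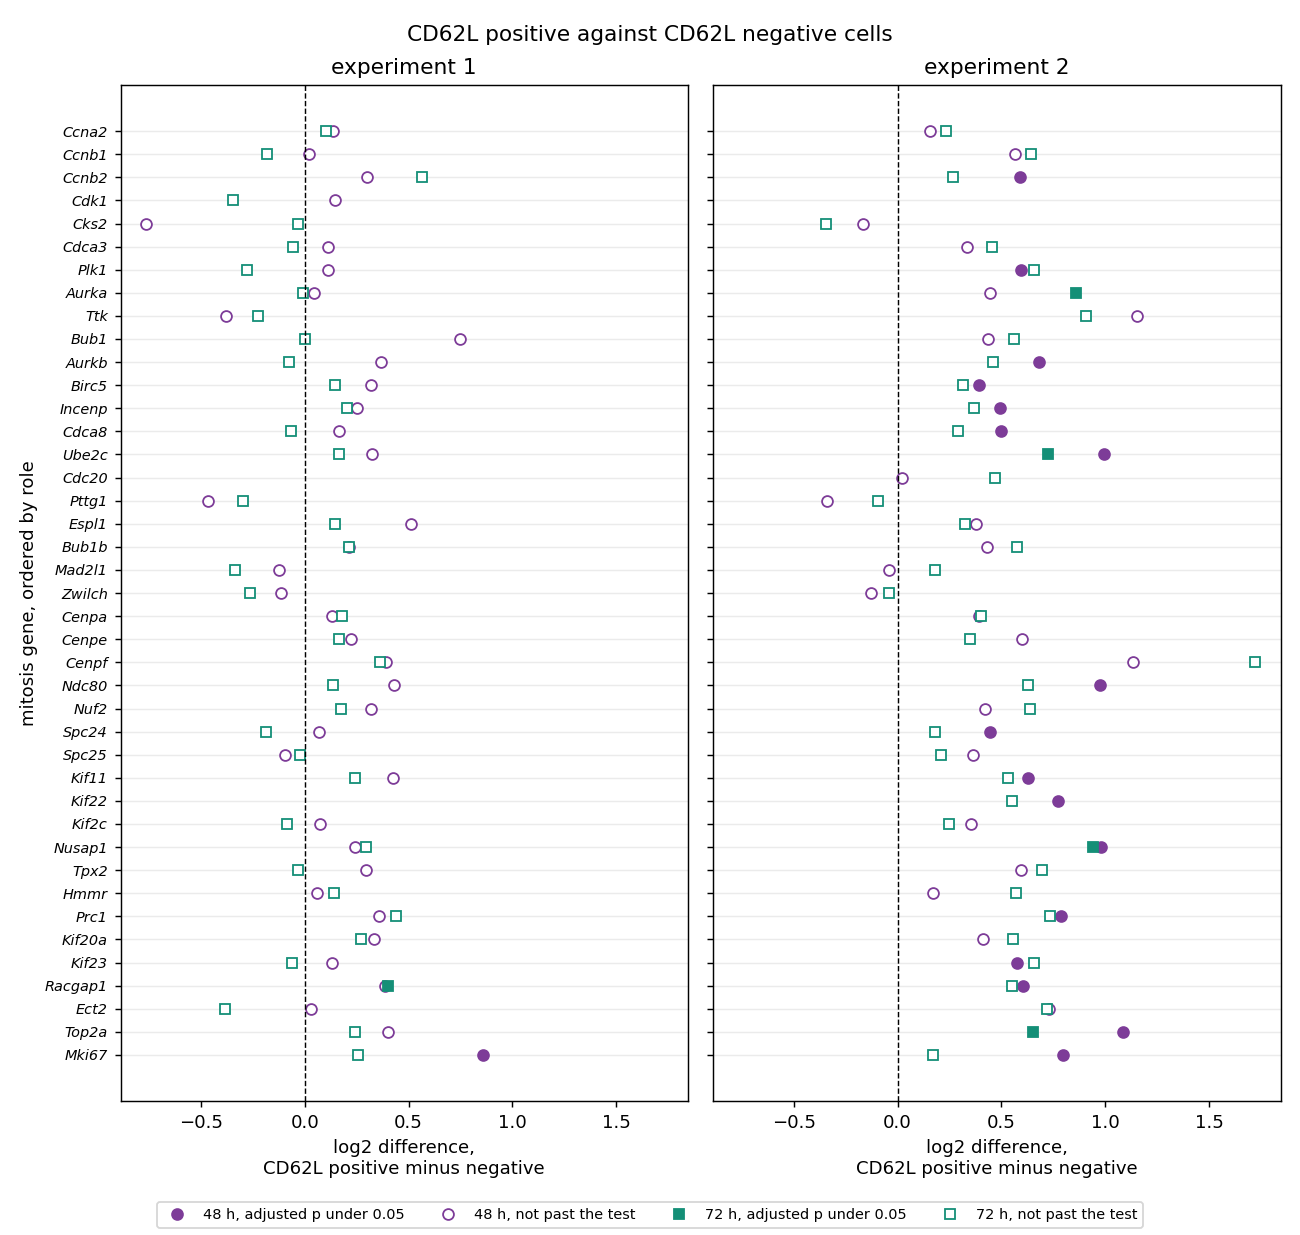
Log2 difference of CD62L positive minus CD62L negative cells for each mitosis gene (rows, by role) in experiment 1 (left) and experiment 2 (right), at 48 h (circles) and 72 h (squares); filled symbols passed the test. In experiment 2 most symbols lie right of 0, with medians of 0.49 and 0.54, and in experiment 1 the medians are 0.21 and 0.10.

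The 72 h and 48 h libraries were also compared within each sorted class. In experiment 2, 4 of 40 genes rose and 0 fell at 72 h against 48 h in CD62L positive cells, where 11.9% of all genes tested rose and 12.3% fell; 6 rose and 0 fell at an unadjusted p under 0.05, and DESeq2 gave 4 and 0. They were Kif23 (0.64 ± 0.19), Cenpa (0.48 ± 0.15), Racgap1 (0.46 ± 0.16) and Cdca3 (0.41 ± 0.14). The count was 12 with these groups fitted alone, 2 with no filter or without 72 h replicate 1, 1 without 48 h replicate 2 or 3 and 0 without 72 h replicate 3. In CD62L negative cells 5 rose and 1 fell, where 12.5% of all genes rose and 12% fell. Ccnb2 (0.67 ± 0.18), Top2a (0.62 ± 0.16), Kif23, Racgap1 and Cenpa rose and Aurka fell by 0.49 ± 0.18. The count higher was 2 with these groups fitted alone or without 72 h replicate 1 and 1 without 48 h replicate 3, and the Aurka call ended with no filter, with these groups fitted alone, and without 48 h replicate 2 or 3 or 72 h replicate 2 or 3, while 2 fell with the second number as a covariate or without 72 h replicate 1.

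In experiment 1, 16 of 39 genes rose and 0 fell at 72 h against 48 h in CD62L negative cells, where 19.8% of all genes tested rose and 16.6% fell, with a median of 0.28 against 0.01. Mki67 had 200.5, 222 and 211 CPM at 72 h, against 107, 83.0 and 99.7 CPM at 48 h, and rose by 1.13 ± 0.18 (adjusted p = 4.78e-06). Ccnb2 had 216, 239.6 and 195 CPM at 72 h, against 105, 105 and 102 CPM at 48 h, and rose by 1.06 ± 0.22 (adjusted p = 0.000539). Both were above every 48 h library, and Ndc80 (1.03 ± 0.21), Nusap1 (1.03 ± 0.18), Racgap1 (0.92 ± 0.13) and Cdca3 (0.78 ± 0.17) came next. At an unadjusted p under 0.05, 19 rose and 2 fell, and DESeq2 gave 13 and 1. The count was 9 without 48 h replicate 2 and 10 without 72 h replicate 1; 1 fell without 48 h or 72 h replicate 3.

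In CD62L positive cells of experiment 1, 9 rose and 3 fell, where 21.3% of all genes tested rose and 20.3% fell, with a median of 0.15 against 0.02. Ccnb2 (1.33 ± 0.23), Nusap1 (1.08 ± 0.19), Racgap1 (0.94 ± 0.14), Ndc80 (0.74 ± 0.23), Cenpa (0.71 ± 0.13) and Cenpf (0.68 ± 0.17) rose most. Plk1 had 364, 356 and 319.6 CPM at 72 h, against 432, 425 and 490.3 CPM at 48 h, and fell by 0.37 ± 0.12 (adjusted p = 0.0155). Zwilch had 104, 92.3 and 87.9 CPM at 72 h, against 126, 150.4 and 124 CPM at 48 h, and fell by 0.48 ± 0.16 (adjusted p = 0.0163). Every 72 h library of Plk1 and of Zwilch lay below every 48 h library, and Mad2l1, the checkpoint protein Mad2, fell by 0.54 ± 0.18.

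Genes of DNA replication are given beside those of mitosis for the late times, and the lists were not tested against each other. At 72 h against 48 h, 33 of 39 replication genes fell and 0 rose in CD62L positive cells of experiment 1, with a median of -0.85. Of all genes tested there, 20.3% fell and 21.3% rose. In those of experiment 2, 28 of 41 fell and 0 rose, with a median of -0.74, where 12.3% of all genes fell and 11.9% rose. In high cultures 35 of 41 fell and 0 rose, with a median of -1.05, where 12% of all genes fell and 11.5% rose. The 3 with the smallest adjusted p were Fen1, the flap endonuclease (-1.39 ± 0.15), Rrm1, the large subunit of ribonucleotide reductase (-1.26 ± 0.15), and the helicase subunit Mcm5 (-1.27 ± 0.16). In low cultures 4 rose and 3 fell, with a median of -0.00, where 14.2% of all genes rose and 11.6% fell. In CD62L positive against negative cells at 72 h, 21 of 39 replication genes were lower and 0 higher in experiment 1 (median -0.54). Of all genes tested there, 9.35% were lower and 10.1% higher. In experiment 2, 5 of 41 were lower and 0 higher (median -0.45), where 0.844% of all genes were lower and 0.682% higher. The mitosis medians were 0.10 in experiment 1 and 0.54 in experiment 2.

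**Figure D5:**
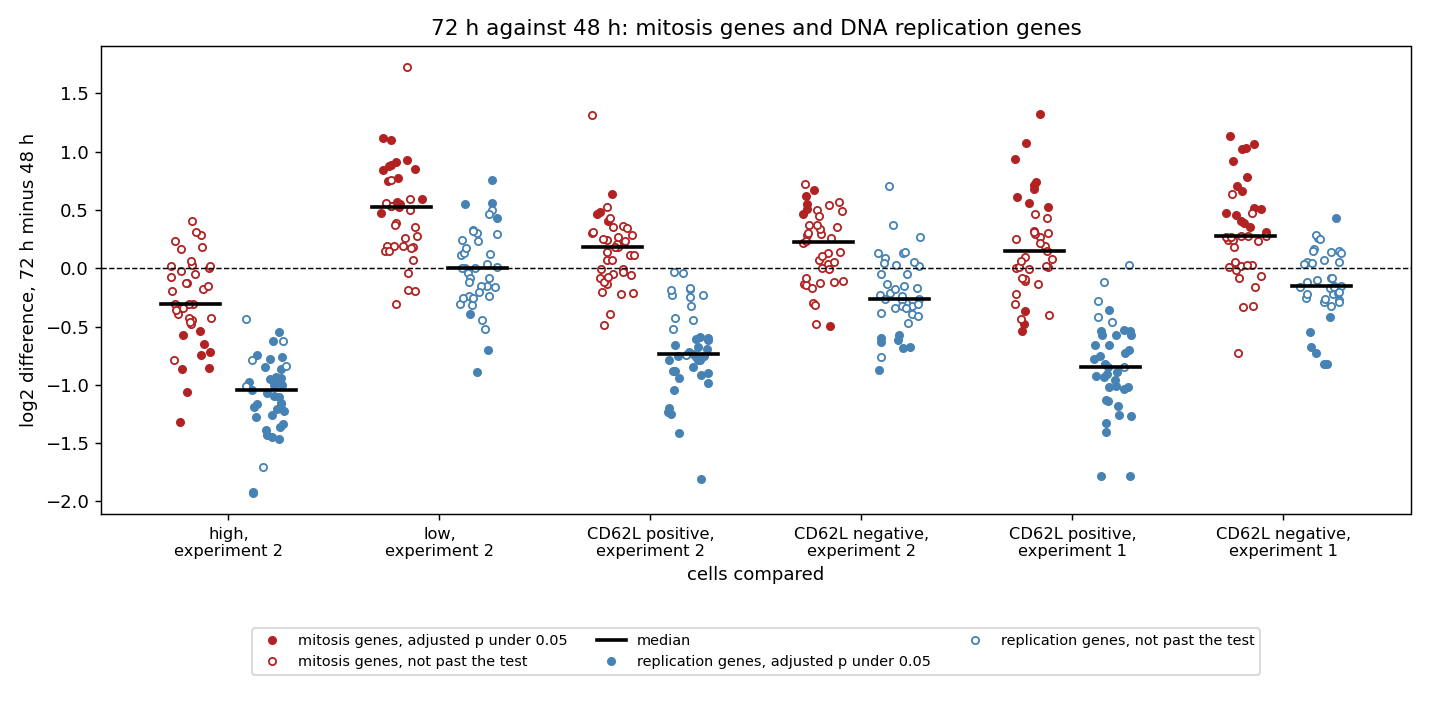
Log2 difference of 72 h minus 48 h for mitosis genes (red) and DNA replication genes (blue) in 6 kinds of cells; filled points passed the test, and black bars are medians. Mitosis medians run from -0.31 in high to 0.53 in low cultures, and replication medians from -1.05 in high to -0.00 in low cultures.

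Unactivated mature cells, the CD44 positive CD62L negative cells of experiment 1, were compared with naive cells. Of 39 genes 12 were higher and 0 lower in mature cells, where 7.82% of all genes tested were higher and 8.59% lower, with a median of 0.92 (0.88 with Kif20a at its bound) against 0.04. At an unadjusted p under 0.05, 20 were higher and 0 lower, and DESeq2 gave 6 and 0. The 41 genes summed to 1833 to 2213 CPM in mature and 1057 to 1166 CPM in naive libraries. Ube2c had 204, 267 and 243 CPM in mature and 139.7, 102 and 134 CPM in naive cells (0.96 ± 0.19, adjusted p = 0.000505). Cenpa had 298, 328 and 318 CPM in mature and 186, 153 and 183 CPM in naive cells (0.87 ± 0.18, adjusted p = 0.000993). Top2a had 142, 120.3 and 163 CPM in mature and 0, 55.2 and 77.7 CPM in naive cells (1.25 ± 0.26, adjusted p = 0.000952), and all 3 genes were higher in every mature library than in any naive one. The naive values rest on 9, 24 and 43 counts for Ube2c, 12, 36 and 59 for Cenpa and 0, 13 and 25 for Top2a. The first of each is from naive replicate 1, the library of 58750 counts.

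Other rises in mature cells rested on fewer counts still. Ccna2 differed by 2.13 ± 0.51 and Mad2l1 by 1.76 ± 0.53, whereas Zwilch had 27 counts in mature and 1 in naive cells, a ratio of 10.3 (exact 95% interval 1.7 to 423), and Cenpe 27 and 2 counts, a ratio of 5.17 (1.3 to 44.9). Kif20a, a midzone motor, had 13 counts in mature and 0 in naive cells and was at least 1.66-fold higher. The count of genes called was 4 without naive replicate 2, 6 without naive replicate 3, and 6 without mature replicate 3.

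Markers of other cells also differed between these 2 groups, and their part in the result was not tested. B cell markers, with 1 of 7 at 0 (Pax5), summed to 525 to 575 CPM in mature and 869 to 1530 CPM in naive libraries, and the 9 myeloid markers, none at 0, to 867 to 958 CPM in mature and 1770 to 2695 CPM in naive libraries. Red cell markers summed to 59.6 to 97.9 CPM in mature and 435 to 1087 CPM in naive libraries. CD8 T and NK cell markers, none of 6 at 0, summed to 258 to 286 CPM in mature and 279 to 395 CPM in naive libraries. In the naive cells of experiment 2, B cell markers summed to 1.24 to 8.49 CPM, with 4 of 7 at 0, and red cell markers to 0 CPM.

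In experiment 1 the cells sorted at 48 h, over both CD62L classes, stood above naive cells for 38 of 39 genes and below for 1, where 30.3% of all genes tested were higher and 31.8% lower, with a median of 3.34 (3.27 with Bub1 and Kif20a at their bounds) against 0.02. Cdk1, the kinase that starts mitosis and too low to test in experiment 2, had 259, 252 and 248 CPM in CD62L positive and 186, 296 and 203 CPM in CD62L negative cells at 48 h, against 15.5, 12.7 and 15.5 CPM in naive cells, and rose by 4.04 ± 0.34 (adjusted p = 1.16e-12). The naive values of Cdk1 rest on 1, 3 and 5 counts. Every sorted library lay above every naive one. Kif20a was at least 11.4-fold higher and Zwilch had 893 counts in the sorted and 1 in naive cells, a ratio of 86.8 (exact 95% interval 15.5 to 3430). Pttg1 was the gene below, with 48.0, 42.6 and 27.9 CPM in CD62L positive and 52.9, 69.3 and 41.4 CPM in CD62L negative cells, against 62.1, 72.1 and 74.6 CPM in naive cells. Its fall by 0.63 ± 0.28 (adjusted p = 0.049) ended in DESeq2, with relative log expression factors, with no filter, with these groups fitted alone and without any 1 of 7 of the 9 libraries, the exceptions being CD62L positive replicate 1 and negative replicate 2. The non-T cell marker sums of the naive cells given above apply here too, and their part was not tested.

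Some genes were measured unequally by the 2 tables. Over all libraries Cdk1 had 3193 counts in experiment 1 and 22 in experiment 2, Cenpf 1475 and 125, and Tpx2 3974 and 930, whereas Cdc20 had 46 and 8928 and Kif22 22 and 9980. Levels of these 5 genes are therefore compared only within a table, and a low value there is a value of that table.

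Across the 13 groups of experiment 2, 39 of the 40 genes followed the mean of all 40, with Pearson's r on log2 group means between 0.72 and 1.00, a description in which groups share libraries' scaling and each gene is part of the mean. The lowest were Cks2 (0.72), Cenpf (0.78), Cenpa (0.88), Zwilch (0.89) and Kif23 (0.90), and Pttg1 stood alone at -0.02. Of 41 genes 21 had their highest group mean in CD62L positive cells at 72 h, 10 in CD62L positive cells at 48 h and 7 in low cultures at 72 h. Cks2 was highest in high cultures at 30 h, Zwilch in CD62L negative cells at 48 h and Pttg1 in naive cells. Outside the 41 genes, those with the group means most like theirs were Cdca2, Kif4, Arhgap11a, Ccnf, Spag5, Tacc3, Foxm1 and Cdc25c, with r of 0.99 over 13 groups for each.

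Genes of related lists were read in the same comparisons, in which 32.3% of all genes were higher and 33.6% lower at 18 h against naive cells, 13.9% higher and 10.6% lower at 30 h against 18 h, and 13.5% lower and 13% higher in high against low cultures at 72 h. Other spindle and midbody proteins had 23 of 32 tested higher and 2 lower at 18 h against naive cells, 27 higher and 0 lower at 30 h against 18 h, and 8 lower and 0 higher in high against low cultures at 72 h. Among other kinetochore and centromere proteins these counts were 17 higher and 4 lower of 28, 19 and 0, and 12 lower and 0 higher. Hjurp, the chaperone that loads CENP-A, fell by 2.16 ± 0.28 at 18 h against naive cells (adjusted p = 2.14e-09), as Cenpa did. Entry regulators and transcription factors included Foxm1, which drives mitotic transcription and rose by 3.35 ± 0.28 from 18 to 30 h, and Cdc25c, the phosphatase that activates Cdk1, which rose by 3.68 ± 0.26. Subunits of the anaphase-promoting complex, which persist through the cycle, had 2 of 12 higher and 0 lower at 30 h against 18 h (median 0.17), and cohesin and its regulators had 4 of 15 higher and 2 lower (median -0.27). The condensin genes had 5 of 8 higher and 0 lower at 30 h against 18 h, with a median of 1.10.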

How the data were processed

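The deposited values are counts per gene symbol for each library, in 1 table per experiment. Per the labels' protocols, poly(A) RNA of sorted cells was primed with indexed poly-T primers that carry molecular identifiers, amplified linearly and sequenced near the 3′ end. Per the submitters' processing notes the tools were HTSeq 0.9.1, STAR 2.5.2b, HISAT 0.1.5, FastQC 0.11.7 and bcl2fastq 2.17.1.14, with build mm9, in no stated role; no source used here says whether reads were collapsed by identifier. A count near the 3′ end depends on the annotated end of the gene, and counts are not compared between genes.

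From these counts, each table was fitted on its own in R 4.3.3 with edgeR 4.0.16: low counts filtered with filterByExpr (minimum count 10), trimmed mean of M values, 1 coefficient for each group and a robust quasi-likelihood test, with Benjamini-Hochberg adjustment over all 8961 genes of experiment 1 or 9239 of experiment 2 and a threshold of 0.05. The standard error is the log2 difference over the square root of F. Residual degrees of freedom were 12 and 25. Alternatives were relative log expression factors, DESeq2 1.42.0, no filter, the compared groups alone, a replicate block, each library left out and, in experiment 2, the second title number as a covariate. Fits within 1 second title number were added after seeing the data. The script was tested on simulated data. Ratios of few counts have exact intervals, and a fold against 0 counts uses a floor of 3 counts over the group, both for counting error only.

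All members could be named; 14 were set for values by library, with up to 6 of the largest rises and falls in each comparison, and up to 3 of each other list by adjusted p. The members and lists were chosen with earlier results of these data known.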

Additional observations from a re-analysis of the deposited data

Results flagged for a closer look

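The log2 difference of high minus low concentration changed between times, by edgeR's test of that change with Benjamini-Hochberg adjustment, and each value below is the later minus the earlier difference. From 18 to 72 h it was negative for Kif2c (-3.85), Ccnb1 (-3.60), Cdca3 (-3.37), Ccna2 (-3.25), Spc25 (-3.02), Birc5 (-2.99), Plk1 (-2.74), Zwilch (-2.71), Ect2 (-2.49), Cdc20 (-2.32), Spc24 (-2.13) and Kif22 (-2.01). It was negative too for Cdca8 (-2.003), Ube2c (-2.001), Top2a (-1.96), Aurkb (-1.95), Bub1b (-1.93), Mad2l1 (-1.92), Ndc80 (-1.78), Kif23 (-1.72), Kif11 (-1.49), Incenp (-1.48), Racgap1 (-1.46) and Pttg1 (-1.12). From 30 to 48 h it was negative for Cdc20 (-1.12), Ccnb1 (-0.99), Ccnb2 (-0.88), Cenpa (-0.83) and Birc5 (-0.66), and positive for Top2a (0.88). From 48 to 72 h the negative values were those of Plk1 (-1.92), Tpx2 (-1.54), Birc5 (-1.49), Kif22 (-1.46), Cdc20 (-1.39), Ccna2 (-1.36), Kif2c (-1.25), Espl1 (-1.24) and Cdca3 (-1.18), and of Zwilch (-1.13), Kif23 (-1.06), Cdca8 (-1.05), Ccnb1 (-1.04), Incenp (-1.01), Top2a (-0.86), Aurka (-0.84), Racgap1 (-0.75) and Spc24 (-0.72). In the 18 to 72 h and 48 to 72 h changes the second title number of experiment 2 runs with concentration at 72 h, where all high libraries carry 1 and both low libraries carry 2, and its part in these values was not separated within that time.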

How the results depend on the processing

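Counts of genes called moved by more than 1.5 times as follows, and the cause was not tested. The main counts are of 40 genes in experiment 2 and 39 in experiment 1, whereas fits with no filter tested 41. With the compared groups alone, 18 h against naive gave 17 higher of 27 tested and the other fits tested 39 in the comparisons named here, 48 h against 30 h in high cultures giving 8 higher and high against low at 48 h 0 higher. The same fit gave 9 higher for CD62L positive against negative at 72 h, 12 higher at 72 h against 48 h in CD62L positive cells, and 2 higher and 0 lower in CD62L negative cells of experiment 2. In experiment 1 it gave 0 lower for 48 h sorted against naive cells, 5 higher for CD62L at 48 h and 2 lower at 72 h against 48 h in CD62L negative cells. DESeq2 gave 16 higher and 0 lower for high against low at 30 h, 9 higher for CD62L at 72 h in experiment 2, 6 higher for mature against naive, 0 lower for 48 h sorted against naive, 4 higher for CD62L at 48 h and 1 lower at 72 h in experiment 1, and 1 lower at 72 h against 48 h in its CD62L negative cells. With no filter, high against low gave 16 higher and 0 lower at 30 h and 1 higher and 1 lower at 48 h, 72 h against 48 h in experiment 2 gave 2 higher in CD62L positive and 0 lower in negative cells, and experiment 1 gave 0 lower for 48 h sorted against naive and 2 higher for CD62L at 48 h. Relative log expression factors gave 0 lower for high against low at 30 h and for 48 h sorted against naive, and 2 lower at 72 h against 48 h in CD62L negative cells of experiment 1.

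With the second title number as a covariate, the change from 30 to 48 h was positive for 2 genes and that from 48 to 72 h negative for 9, CD62L at 48 h gave 8 higher and CD62L negative cells 2 lower at 72 h. Within second number 2, 48 h against 30 h in low cultures gave 7 higher, 72 h against 48 h in low cultures 5 and high against low at 48 h 1. Within number 1, CD62L in experiment 2 gave 2 higher at 48 h and 1 at 72 h.

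Leaving out 1 library gave these ranges. For 48 h against 30 h in high cultures 9 to 12 rose and 1 to 2 fell, and for 72 h against 48 h in low cultures 8 to 13 rose. High against low gave 6 to 14 higher and 0 lower throughout at 30 h, 0 to 3 higher and 0 to 1 lower at 48 h, and 13 to 18 lower at 72 h, and the change from 48 to 72 h was negative for 9 to 18. In experiment 2, CD62L gave 9 to 18 higher at 48 h and 0 to 3 at 72 h, and 72 h against 48 h gave 0 to 4 higher in positive cells and 1 to 7 higher and 0 to 2 lower in negative cells. In experiment 1, mature against naive gave 4 to 15 higher, 48 h sorted against naive 0 to 1 lower, CD62L 1 to 2 higher at 48 h and 0 to 1 in either direction at 72 h, 72 h against 48 h in negative cells 9 to 13 higher and 0 to 1 lower, and the change of CD62L 0 to 1 lower.

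Taken over all groups, same-numbered replicates did not deviate together. The correlation over same-numbered pairs had a median of -0.0117 in experiment 1 (45 pairs, -0.263 to 0.354, 7 over 0.1). In experiment 2 the median was 0.00154 (222 pairs, -0.437 to 0.477, 19 over 0.1). These medians mix pairs of all groups, so they cannot decide whether the numbers pair particular groups, such as the 2 CD62L classes of 1 time. With a replicate block no count moved by more than 1.5 times; it gave 13 higher for high against low at 18 h, 21 lower at 72 h and 17 higher for CD62L at 48 h in experiment 2. Few counts limit Cdk1 in experiment 2, Cdc20 and Kif22 in experiment 1, and the genes with 0 to 3 counts in naive cells; why these 3 genes have few counts in 1 table was not tested.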
